A study of Homo sapiens with 6 samples.

Results

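Homologous recombination, Fanconi and RecQ genes were examined in 143B osteosarcoma cells with and without CNTNAP4, a neurexin-family membrane protein. The set held 39 genes, a list of symbols drawn up with earlier results of these data known but with no measured value in its rule, out of 54308 genes listed in the deposited table. RNA came from 3 vector control (VC) libraries, made from 143B cells that received the vector plasmid and carry the control genotype, and from 3 CNTNAP4 KO libraries, made from 143B cells that received the CNTNAP4 KO plasmid. Both groups are the same established human osteosarcoma cell line, grown in the same serum-containing medium and transfected with a CRISPR/Cas9 vector. The labels give 48 h of transfection, whereas the methods describe a longer incubation and the sorting of single cells into colonies. The methods describe the RNA as taken from clonal cells, in 3 independent preparations, and the sources used here do not say which colony gave which library, so differences between colonies and an effect of the deletion cannot be told apart. The labels give each group numbered replicates, and p-values measure only the spread between these libraries.

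All values are log2 signals deposited per gene symbol, with the same range and a median of 0.619 in each library, as quantile normalization gives, and every fold change is KO against VC on that log2 scale. The linear unit beneath the log2 scale is not given in the sources used here, so signals are compared within a gene and never between genes. A gene was called when limma's moderated test gave an adjusted p under 0.05 over the 19306 genes tested. Counts of genes that fell or rose are counts of genes called lower or higher. In the description of each gene, values stand in the order of replicates 1, 2 and 3. Between 20333 and 21041 genes had a value in each library, read depth is unknown, and CNTNAP4 itself had a value in 1 of the 6 libraries (a log2 signal of -7.18 in VC replicate 3), so the signals do not check the deletion. Of the osteoblast lineage markers, SPARC, COL1A1, SPP1, RUNX2, ALPL and COL1A2 had values in all 6 libraries, SP7 in 4, BGLAP in 2 and IBSP in 0. SPP1, ALPL, SPARC and COL1A1 rose in KO and COL1A2 fell (log2 fold changes from -0.81 to 1.55, limma adjusted p between 0.00963 and 0.0309), and the part of this in the results was not tested. The COL1A2 signals were low in every library, from -5.03 to -4.59 in VC and from -5.72 to -5.47 in KO. The leukocyte markers PTPRC, CD3E and CD14 and the endothelial markers had log2 signals under -3 wherever they had a value, while the epithelial markers were mixed. KRT8 (log2 fold change 0.59, limma adjusted p = 0.0135) rose and EPCAM (-0.67, limma adjusted p = 0.0157) fell, both with values in all 6 libraries, KRT18 was not called (-0.26, limma adjusted p = 0.0853), and CDH1 had 1 value, at -8.04. Mean log2 signals in VC were 9.01 for KRT18, 6.61 for KRT8 and 1.71 for EPCAM.

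Homologous recombination rebuilds a broken chromosome by copying an intact sister. The kinases ATM and ATR signal the break, nucleases trim its ends, the BRCA1 and BRCA2 complexes prepare the trimmed end for pairing with the sister, and RecQ helicases such as BLM take apart the joint molecules that follow. The Fanconi proteins use the same machinery to repair DNA strands that have been crosslinked: a core complex marks FANCD2 and FANCI with ubiquitin and so recruits the nucleases. Many of these genes are transcribed mainly in S and G2 phase, when a sister chromatid is present, and inherited defects in several of them (RECQL4 and WRN among them) predispose to osteosarcoma.

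Most of the 39 genes stood lower in KO than in VC. All 39 had a value in each of the 6 libraries, and all were tested. Calls were made for 19 of them, where 32.9% of all genes tested were called. KO signals were called lower for 18 (46.2%), where the share over all genes tested was 19.8%, and called higher for 1, FANCE, where the share over all genes was 13.1%. No call was made for the other 20. The mean was lower in KO in 34 of the 39 genes, against 59.8% of all genes tested. The median log2 fold change was -0.53, against -0.13 over all genes tested, with a range from -1.35 for FANCM to 0.41 for FANCE. All 3 KO values lay under all 3 VC values in 30 of the 39 genes (76.9%), compared with 36.7% of all genes with 6 values. In 3 genes (RBBP8, FANCE and FANCF) the KO values lay above the VC values (7.69%, against 22.6% of all genes with 6 values), and in 6 (CHEK2, PALB2, RAD51AP1, RAD51C, FANCL and RECQL) the groups overlapped. Of the genes with no call, 12 had KO values that were all under the VC values, against 24.2% of all uncalled genes with 6 values, and 9 had an unadjusted p under 0.05, against 22.3% of all uncalled genes. In bulk RNA, fewer cells expressing a gene and less of its RNA per cell cannot be told apart.

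**Figure D1:**
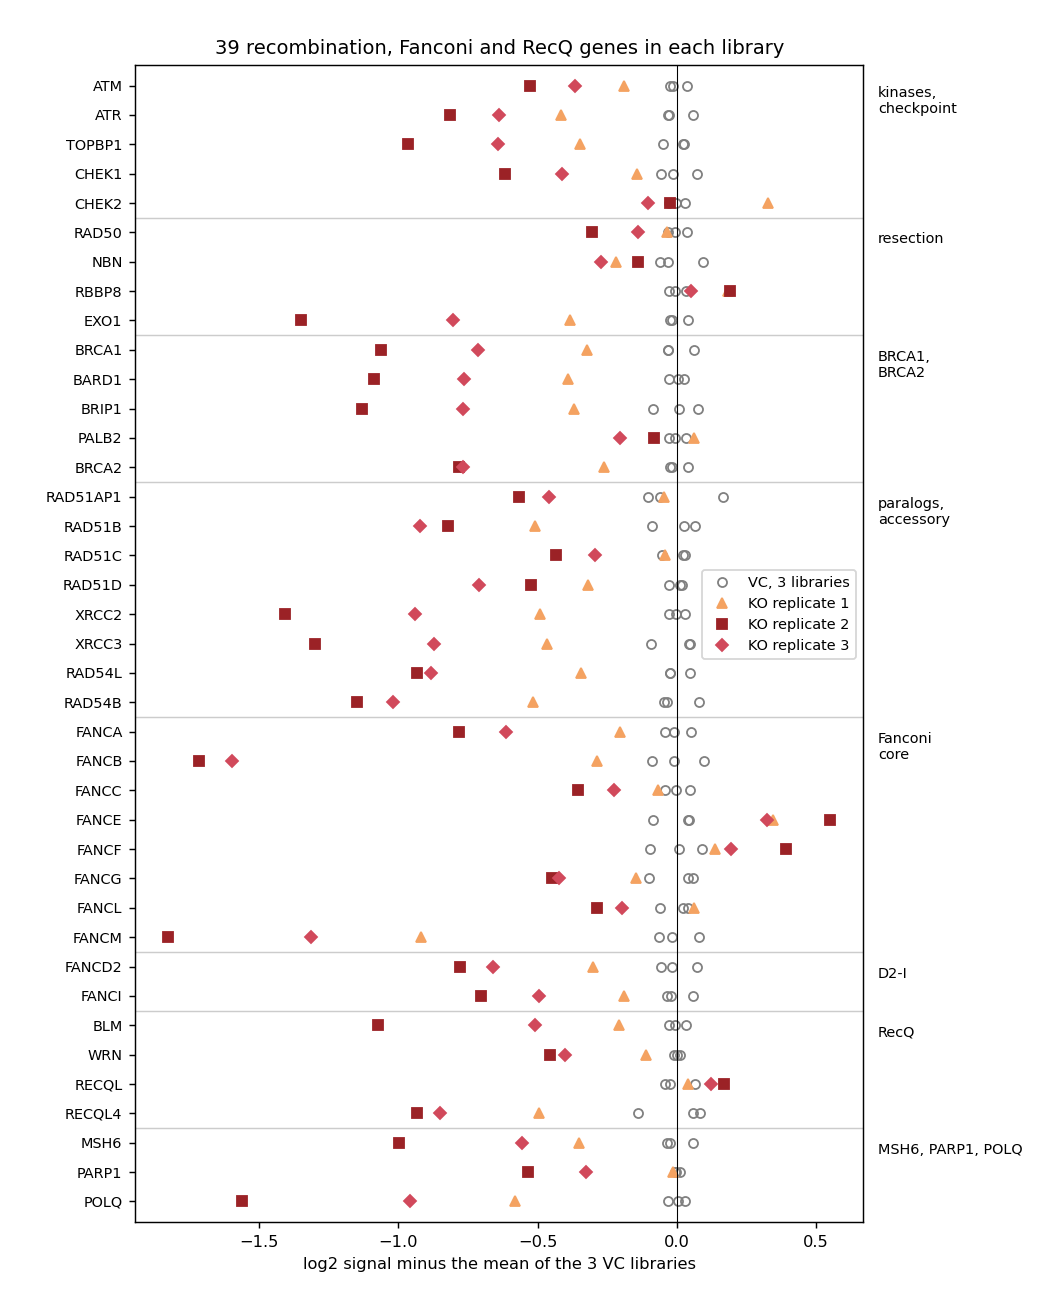
Each row is 1 gene and the horizontal axis is its log2 signal minus the mean of the 3 VC libraries. Open circles are VC libraries and filled symbols are KO libraries. The VC circles lie close to 0 in each row, and KO replicate 2 is the lowest of the 6 libraries in 30 of the 39 rows.

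The number of calls changed with the library left out. Each such fit also holds fewer libraries, so loss of power and dependence on a single library were not separated. Without KO replicate 1, 30 of the 39 genes were called lower (76.9%, against 31.0% of all genes tested), and without KO replicate 2 the number was 11 (28.2%, against 14.3%). Without VC replicate 2 it was 2 (5.13%, against 7.45%), and without VC replicate 1, VC replicate 3 or KO replicate 3 it was 0, where 3.47%, 3.05% and 5.54% of all genes were called lower. At an unadjusted p under 0.05, those 3 fits had 20, 20 and 19 of the 39 genes lower in limma, where 22.2%, 23.3% and 23.1% of all genes were lower at that threshold. Each of the 19 calls was lost in at least 3 of these 6 fits. Without variance moderation 6 of the genes were called lower, against 12.6% of all genes, and with the replicate number as a block 0 were, against 4.86% (23 at an unadjusted p under 0.05, against 27.5% of all genes). Higher numbers came from trend and robust moderation (27, against 25.5% of all genes), from 1 added to the linear signal (24, against 24.8%), from genes with 6 values alone (20, against 23.5%) and from the genes in the upper 50% of mean signal (23 of 35, against 35.6%), and 16 were called with median-centred libraries (against 16.7%). FANCE was called higher without KO replicate 1 (15.9% of all genes called higher) or KO replicate 2 (9.3%) and without variance moderation (10.3%). Its call was lost with the replicate block (3.08%), without VC replicate 1, 2 or 3 (4.07%, 5.62% and 3.51%) and without KO replicate 3 (5.32%).

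**Figure D2:**
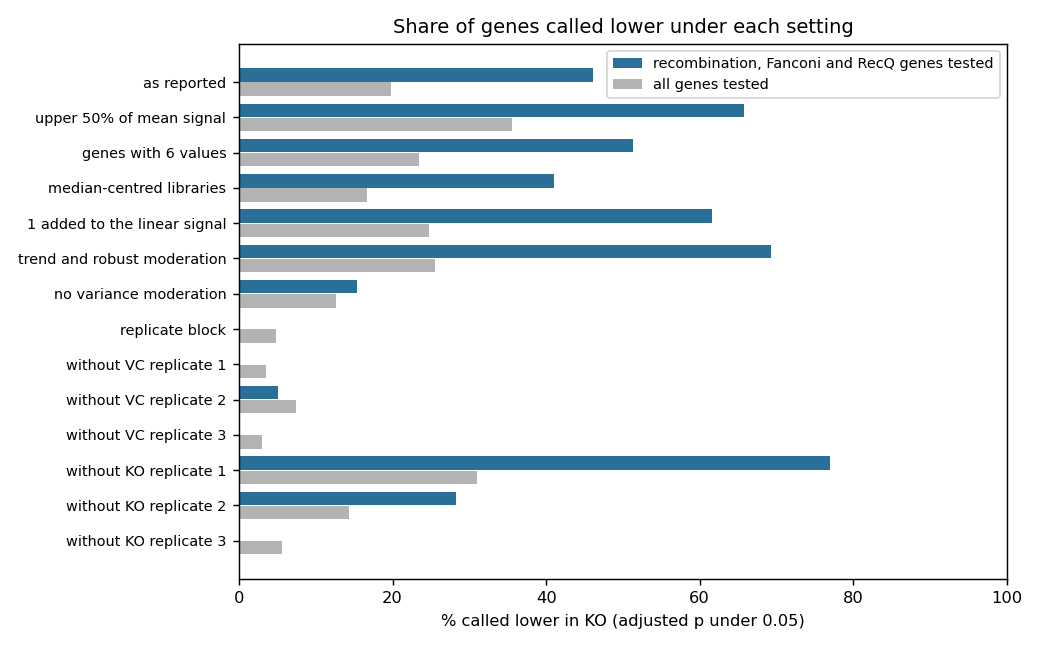
Bars give the share of tested genes called lower in KO (adjusted p under 0.05, limma) in the fit reported here and in each alternative, for the 39 recombination, Fanconi and RecQ genes (blue, 35 of them in the upper 50% of mean signal) and for all genes tested (grey). The blue bar reads 46.2% in the fit reported and 76.9% without KO replicate 1, and is at 0 without VC replicate 1, VC replicate 3 or KO replicate 3 and with the replicate block.

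Promoters were looked up in RefSeq for 34 of the 39 genes, as the 250 bases before and the 50 bases after the annotated start (build GRCh38.p14). The entries not matched are NBN, RAD54B, FANCI, WRN and RECQL4. The E2F word, which E2F factors bind in genes of the G1/S transition, was searched on both strands as TTTCCCGC, TTTCGCGC, TTTGCCGC or TTTGGCGC, the CHR element of genes of G2 and mitosis as TTTGAA, and the CCAAT box as CCAAT. None of these words contains another. E2F words occurred in 7 of the 34 promoters (20.6%), compared with 4.62% of the promoters of all genes tested and 3.31% of all promoters in the table. The CHR word was found in 4 (11.8%, against 11.1% and 15.2%) and the CCAAT word in 14 (41.2%, against 34.1% and 34.6%). Of the 16 promoters whose genes were called lower, 4 held an E2F word, and of the other 18, 3 did. A matched word is a description of the sequence and not evidence of a bound factor.

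The E2F words are shown because their share among these promoters stood furthest from that of all promoters, a choice made after the counts were seen. Each is printed with 16 bases on either side, 5′ to 3′ along the gene, and with the word in capitals. The position in parentheses is that of the first capital relative to the start site.
TOPBP1 (-7), chr3:133661925-133661964, minus strand: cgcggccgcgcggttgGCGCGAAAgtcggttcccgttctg
EXO1 (5), chr1:241848192-241848231, plus strand: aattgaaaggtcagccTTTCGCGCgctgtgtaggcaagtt
XRCC2 (22), chr7:152676097-152676136, minus strand: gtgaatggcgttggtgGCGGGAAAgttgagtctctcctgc
FANCA (-172), chr16:89816796-89816835, minus strand: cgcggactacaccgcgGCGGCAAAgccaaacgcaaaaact
FANCC (-172), chr9:95317858-95317897, minus strand: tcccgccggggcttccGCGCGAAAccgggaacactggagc
FANCC (-46), chr9:95317732-95317771, minus strand: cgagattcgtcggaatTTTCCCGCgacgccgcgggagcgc
FANCD2 (-2), chr3:10026419-10026458, plus strand: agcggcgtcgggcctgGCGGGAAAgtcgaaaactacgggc
MSH6 (4), chr2:47783132-47783171, plus strand: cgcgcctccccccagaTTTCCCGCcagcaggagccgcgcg
In TOPBP1, EXO1, FANCD2 and MSH6 the word lay within 10 bases of the start site. Of these genes TOPBP1, XRCC2, FANCD2 and MSH6 were called lower in KO, and EXO1, FANCA and FANCC were not called.

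Whole promoter windows are given for FANCM, RAD51B and ATR, which had the smallest adjusted p among the genes with a promoter. FANCE, the gene with the highest fold change, is given as well. Capitals mark the searched words. The FANCM window holds 2 CCAAT words, at -207 (as its complement) and -74, and the other windows hold none of the words searched.
FANCM, chr14:45135680-45135979, plus strand: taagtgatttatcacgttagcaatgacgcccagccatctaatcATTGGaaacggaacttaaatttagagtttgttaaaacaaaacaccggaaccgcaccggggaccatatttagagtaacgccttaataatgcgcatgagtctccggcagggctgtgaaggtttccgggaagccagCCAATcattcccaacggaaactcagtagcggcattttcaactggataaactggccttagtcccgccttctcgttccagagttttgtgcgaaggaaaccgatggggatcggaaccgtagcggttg
RAD51B, chr14:67823291-67823590, plus strand: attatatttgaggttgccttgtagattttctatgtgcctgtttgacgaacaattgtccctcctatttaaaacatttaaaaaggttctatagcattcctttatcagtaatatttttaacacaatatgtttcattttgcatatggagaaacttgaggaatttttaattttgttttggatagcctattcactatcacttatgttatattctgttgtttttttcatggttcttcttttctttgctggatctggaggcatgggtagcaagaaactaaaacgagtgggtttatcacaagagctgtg
ATR, chr3:142578684-142578983, minus strand: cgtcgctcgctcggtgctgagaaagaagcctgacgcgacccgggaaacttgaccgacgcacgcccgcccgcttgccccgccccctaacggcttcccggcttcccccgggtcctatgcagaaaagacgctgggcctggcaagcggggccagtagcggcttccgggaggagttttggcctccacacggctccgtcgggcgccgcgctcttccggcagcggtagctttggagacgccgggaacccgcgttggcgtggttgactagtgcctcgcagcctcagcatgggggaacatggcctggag
FANCE, chr6:35452088-35452387, plus strand: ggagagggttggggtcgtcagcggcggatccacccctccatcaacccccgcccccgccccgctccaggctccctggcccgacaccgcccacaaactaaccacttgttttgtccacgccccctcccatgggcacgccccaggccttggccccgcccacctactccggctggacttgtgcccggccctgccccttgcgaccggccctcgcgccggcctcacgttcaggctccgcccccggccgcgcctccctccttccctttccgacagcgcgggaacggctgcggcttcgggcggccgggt
The table lists 1 start per gene, and the start in use in 143B cells was not measured. In the RAD51B window an ATG lies directly after the listed start, so this window may lie downstream of the promoter, which was not tested. It is counted among the 34 promoters, and the absence of the words from it says little about RAD51B.

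Among the damage kinases and checkpoint genes, 3 of 5 were called lower, against 19.8% of all genes tested, and none was called higher. ATR, the kinase that responds to stalled forks and resected ends, had log2 signals of 3.45, 3.54 and 3.45 in VC and 3.06, 2.66 and 2.84 in KO. Its KO values were all under its VC values, and it fell by 0.62 (standard error 0.12, limma adjusted p = 0.0197). TOPBP1, which activates ATR, had signals of 4.70, 4.77 and 4.78 in VC and 4.40, 3.79 and 4.11 in KO. It fell by 0.65 (standard error 0.17, limma adjusted p = 0.0365). ATM, the kinase that answers double-strand breaks, stood between 2.18 and 2.23 in VC and at 2.01, 1.67 and 1.83 in KO (log2 fold change -0.36, limma adjusted p = 0.0496). The effector kinase of ATR, CHEK1, had the same order of KO libraries, with 3.54, 3.66 and 3.58 in VC and 3.45, 2.98 and 3.18 in KO, but was not called (-0.39, limma adjusted p = 0.0771). CHEK2, the effector of ATM, differed in its lowest library. Its VC values were 2.06, 2.03 and 2.003 and its KO values were 2.36, 2.01 and 1.93, so that KO replicate 1 was the highest of the 6 libraries and KO replicate 3 the lowest (log2 fold change 0.066, limma adjusted p = 0.716). Without KO replicate 1 the sign turned, to -0.064.

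End resection genes gave no call in either direction, and 2 of the 4 (NBN and EXO1) had an unadjusted limma p under 0.05, against 47.9% of all genes tested in either direction. RAD50 and NBN form the MRN complex, which senses and trims broken ends, together with MRE11. RAD50 had 2.93, 3.00 and 2.95 in VC and 2.92, 2.66 and 2.82 in KO, and NBN had 4.05, 4.20 and 4.08 in VC and 3.89, 3.97 and 3.84 in KO. The log2 fold changes were -0.16 (limma adjusted p = 0.224) and -0.21 (limma adjusted p = 0.094), and in both genes the groups were separated by less than 0.1 at their nearest values. RBBP8 encodes CtIP, which starts resection with MRN. Its signals were 3.93, 3.99 and 3.95 in VC and 4.14, 4.15 and 4.01 in KO, all 3 KO values above the VC values (log2 fold change 0.14, limma adjusted p = 0.18). EXO1, the nuclease that extends resection over long stretches, showed the largest difference of the group and also a wide spread among KO libraries. It had 3.87, 3.94 and 3.88 in VC and 3.51, 2.55 and 3.09 in KO (log2 fold change -0.85, standard error 0.25, limma adjusted p = 0.0517).

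In the BRCA1 and BRCA2 complexes 4 of 5 genes were called lower, against 19.8% of all genes tested. BRCA1, the ubiquitin ligase and scaffold that favours resection, had 3.77, 3.86 and 3.77 in VC and 3.48, 2.74 and 3.09 in KO. Its obligate partner BARD1 had 2.59, 2.64 and 2.62 in VC and 2.23, 1.53 and 1.86 in KO, and the helicase BRIP1, which binds the BRCA1 C-terminus, had 1.31, 1.48 and 1.41 in VC and 1.03, 0.27 and 0.63 in KO. These 3 partners shared the order of the KO libraries, and their log2 fold changes were alike in size: -0.70 for BRCA1 (standard error 0.20, limma adjusted p = 0.0458), -0.75 for BARD1 (0.18, limma adjusted p = 0.0341) and -0.76 for BRIP1 (0.20, limma adjusted p = 0.0417). BRCA2, which acts on the single-stranded DNA left by resection, had 1.94, 2.01 and 1.95 in VC and 1.70, 1.18 and 1.20 in KO and fell by 0.60 (limma adjusted p = 0.0405). PALB2, the bridge between BRCA1 and BRCA2, was the exception. Its VC values of 2.40, 2.42 and 2.46 and its KO values of 2.49, 2.35 and 2.22 overlapped (log2 fold change -0.075, limma adjusted p = 0.546), and its sign turned to 0.0086 when libraries were centred on their medians.

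Recombination paralogs and accessory factors gave 6 calls among 8 genes, all lower, where 19.8% of all genes tested were called lower. XRCC2 and RAD51D belong to the BCDX2 paralog complex with RAD51B and RAD51C. For XRCC2 the signals were 3.33, 3.35 and 3.38 in VC and 2.86, 1.95 and 2.41 in KO, and the log2 fold change was -0.95 (standard error 0.24, limma adjusted p = 0.0349). RAD51B went from 0.54, 0.42 and 0.58 in VC to 0.0027, -0.31 and -0.41 in KO (-0.75, standard error 0.13), and its limma adjusted p of 0.0159 was the smallest of the 39 genes. RAD51D had 0.40, 0.41 and 0.36 in VC and 0.075, -0.13 and -0.32 in KO (-0.52, limma adjusted p = 0.0277). In both RAD51B and RAD51D the lowest library was KO replicate 3. The remaining subunit, RAD51C, had 2.57, 2.57 and 2.49 in VC and 2.50, 2.11 and 2.25 in KO, so KO replicate 1 lay within the VC range (-0.26, limma adjusted p = 0.144). XRCC3, the partner of RAD51C in the other paralog complex, had 4.88, 4.74 and 4.88 in VC and 4.37, 3.53 and 3.96 in KO (-0.88, standard error 0.22, limma adjusted p = 0.0353).

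The translocases RAD54L and RAD54B remodel chromatin and DNA during pairing with the sister. RAD54L had 3.87, 3.94 and 3.87 in VC and 3.55, 2.96 and 3.01 in KO (log2 fold change -0.72, standard error 0.17, limma adjusted p = 0.0328). RAD54B had 2.11, 2.23 and 2.10 in VC and 1.63, 0.997 and 1.13 in KO (-0.90, standard error 0.18, limma adjusted p = 0.0221). RAD51AP1, which stimulates strand pairing, had 3.995, 4.26 and 4.04 in VC and 4.05, 3.53 and 3.64 in KO. KO replicate 1 lay inside the VC range, and the gene was not called (-0.36, limma adjusted p = 0.149).

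Fanconi core complex genes gave calls in both directions, with 1 gene called lower, 1 called higher and 6 not called. Over all genes tested 19.8% were called lower and 13.1% higher. FANCM, the translocase that anchors the complex to DNA, showed the largest fall of the 39 genes, from 1.36, 1.505 and 1.41 in VC to 0.51, -0.40 and 0.11 in KO. The log2 fold change was -1.35 (standard error 0.24, limma adjusted p = 0.0165), which puts the KO signal at 39.2% of VC on the linear scale. FANCE, the subunit that contacts FANCD2, rose, with 3.45, 3.32 and 3.44 in VC and 3.75, 3.95 and 3.73 in KO (0.41, standard error 0.094, limma adjusted p = 0.0293), a KO signal of 133% of VC. FANCF, an adaptor that binds FANCE through FANCC, had 2.21, 2.13 and 2.03 in VC and 2.26, 2.52 and 2.32 in KO (0.24, limma adjusted p = 0.12). In both FANCE and FANCF every KO library was above every VC library, and KO replicate 2 was the highest of the 6.

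FANCB, which organises the catalytic module with the ligase FANCL, had the widest spread among KO libraries of the 39 genes. Its values were 0.32, 0.24 and 0.43 in VC and 0.041, -1.39 and -1.27 in KO (log2 fold change -1.20, standard error 0.40, limma adjusted p = 0.0699). KO replicate 1 stood apart from the other two KO libraries and nearest to VC, and without it the log2 fold change was -1.66 with a limma adjusted p of 0.00397. FANCA had 3.40, 3.30 and 3.34 in VC and 3.14, 2.56 and 2.73 in KO (-0.53, limma adjusted p = 0.0548), and its partner FANCG had 4.59, 4.45 and 4.61 in VC and 4.40, 4.10 and 4.12 in KO (-0.34, limma adjusted p = 0.066). Neither was called, and neither overlapped between groups. FANCC (-0.22, limma adjusted p = 0.135) and FANCL (-0.14, limma adjusted p = 0.364) had the smallest differences of the complex, and FANCL values overlapped.

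FANCD2 and FANCI, the pair that the core complex ubiquitinates, had the same order of KO libraries. FANCD2 had 4.02, 4.11 and 3.98 in VC and 3.74, 3.26 and 3.38 in KO and fell by 0.58 (standard error 0.14, limma adjusted p = 0.0335). FANCI had 4.87, 4.97 and 4.89 in VC and 4.72, 4.21 and 4.41 in KO and was not called (-0.46, standard error 0.14, limma adjusted p = 0.0585). Every KO value of each gene was under its VC values. UBE2T, the ubiquitin-conjugating enzyme that works with FANCL on this pair, averaged 5.59 ± 0.058 in the VC libraries and 5.13 ± 0.32 in the KO libraries (SD, n = 3 each), a difference of -0.46 (limma adjusted p = 0.0871).

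Of the RecQ helicases, RECQL4 fell and BLM, WRN and RECQL were not called. RECQL4, which acts at replication origins and is mutated in Rothmund-Thomson syndrome, had 4.41, 4.21 and 4.44 in VC and 3.86, 3.42 and 3.51 in KO (log2 fold change -0.76, standard error 0.14, limma adjusted p = 0.0196). BLM, the helicase that dissolves double Holliday junctions, had 2.99, 3.05 and 3.01 in VC and 2.81, 1.95 and 2.51 in KO. Its KO libraries were widely spread, and the difference of -0.60 had a standard error of 0.23 (limma adjusted p = 0.0947). WRN, the helicase and exonuclease lost in Werner syndrome, had 2.36, 2.38 and 2.37 in VC and 2.26, 1.92 and 1.97 in KO. RECQL did not separate the groups. Its VC values were 4.71, 4.82 and 4.73 and its KO values 4.79, 4.92 and 4.88, with a log2 fold change of 0.11 (limma adjusted p = 0.289).

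POLQ, MSH6 and PARP1 act beside recombination. POLQ, the polymerase of theta-mediated end joining, had 2.62, 2.64 and 2.58 in VC and 2.03, 1.05 and 1.66 in KO. It fell by 1.03 (standard error 0.25, limma adjusted p = 0.0337), to 48.8% of VC, and FANCM and POLQ were the only genes of the 39 that were called lower with at least a 2-fold change, against 5.43% of all genes tested. MSH6, a mismatch recognition protein, had 5.98, 6.07 and 5.99 in VC and 5.66, 5.01 and 5.45 in KO (-0.64, standard error 0.18, limma adjusted p = 0.0447). PARP1, the sensor of single-strand breaks, had 6.79, 6.77 and 6.77 in VC and 6.76, 6.24 and 6.45 in KO. Its VC libraries were the tightest of the 39 genes (SD 0.0092, n = 3), KO replicate 1 lay just under them, and the gene was not called (-0.29, limma adjusted p = 0.168).

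**Figure D3:**
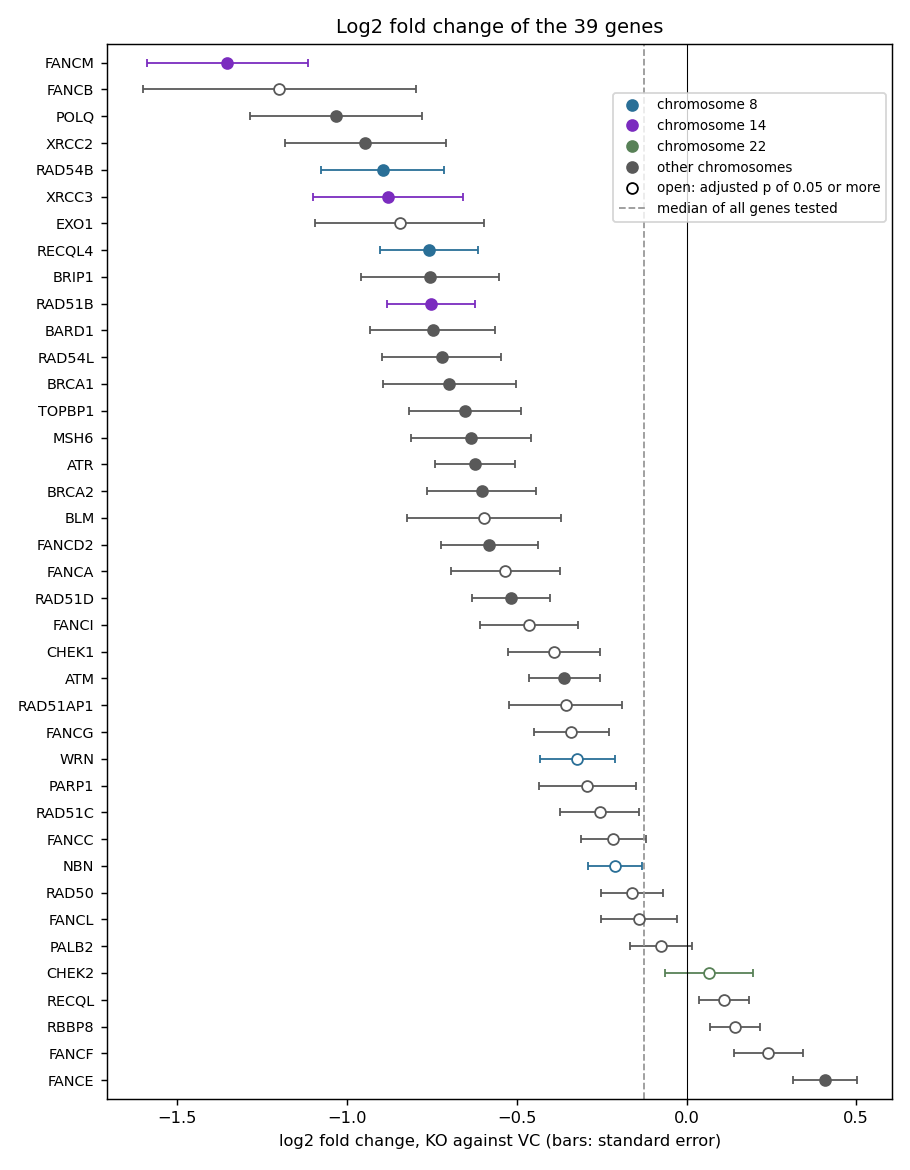
Points give the log2 fold change of each of the 39 genes, KO against VC, with standard errors from limma as bars, ordered from the lowest to the highest. Filled points had an adjusted p under 0.05, open points did not, colours mark chromosomes 8, 14 and 22, and the dashed line is the median of all 19306 genes tested (-0.13). FANCM is at the low end at -1.35 and FANCE at the high end at 0.41.

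The KO libraries were graded in the same way across most of these genes. KO replicate 2 was the lowest of the 6 libraries in 30 of the 39 genes (76.9%), against 37.4% of all genes with 6 values. In 30 of the 39, KO replicate 1 was the highest and KO replicate 2 the lowest of the KO libraries, which was so for 36.4% of all genes with 6 values. Relative to the VC mean the median of the 39 genes was -0.22 in KO replicate 1, -0.78 in KO replicate 2 and -0.56 in KO replicate 3, against -0.045, -0.16 and -0.15 over all genes with 6 values. The SD over KO libraries exceeded that over VC libraries in 38 of the 39 genes, NBN being the exception, and in 70.2% of all genes with 6 values. Median SDs were 0.0497 in VC and 0.25 in KO for these genes, and 0.0943 and 0.182 for all genes with 6 values. On the first principal component of all genes with 6 values (63.5% of the variance) KO replicates 1, 2 and 3 scored 20.8, 73.8 and 49.0 and the VC libraries between -48.4 and -46.7, so that KO replicate 1 was nearest to VC and KO replicate 2 farthest.

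Genes of the cell cycle moved with the same libraries. The deviation of a library, averaged over the 39 genes and taken from each gene's mean over the 6 libraries, was 0.24 ± 0.016 (SD, n = 3) for VC, while KO replicates 1, 2 and 3 stood at 0.024, -0.45 and -0.30. For 40 S phase genes of the Seurat package, leaving out the 3 that are among the 39, the VC mean was 0.28 ± 0.027 (SD, n = 3 libraries), and the KO libraries stood at 0.053, -0.59 and -0.31. For 54 G2/M phase genes it was 0.34 ± 0.032 (SD, n = 3 libraries), and the KO libraries stood at -0.11, -0.51 and -0.39. Of the former 16 (40%) and of the latter 46 (85.2%) were called lower, against 19.8% of all genes tested. Over all genes with 6 values KO replicates 1, 2 and 3 stood at 0.033, -0.11 and -0.094, in the same order. Of 6 proliferation markers, MKI67 (log2 fold change -1.05), TOP2A (-0.92), CCNB1 (-0.80), CDK1 (-0.73) and CCNA2 (-0.62) fell with a limma adjusted p between 0.0124 and 0.0365, and PCNA was not called (-0.70, limma adjusted p = 0.111). Over these 6 markers the mean deviation lay between 0.36 and 0.48 in VC and between -0.71 and -0.063 in KO. The part of cell cycle phase in the differences of the recombination, Fanconi and RecQ genes was not tested.

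**Figure D4:**
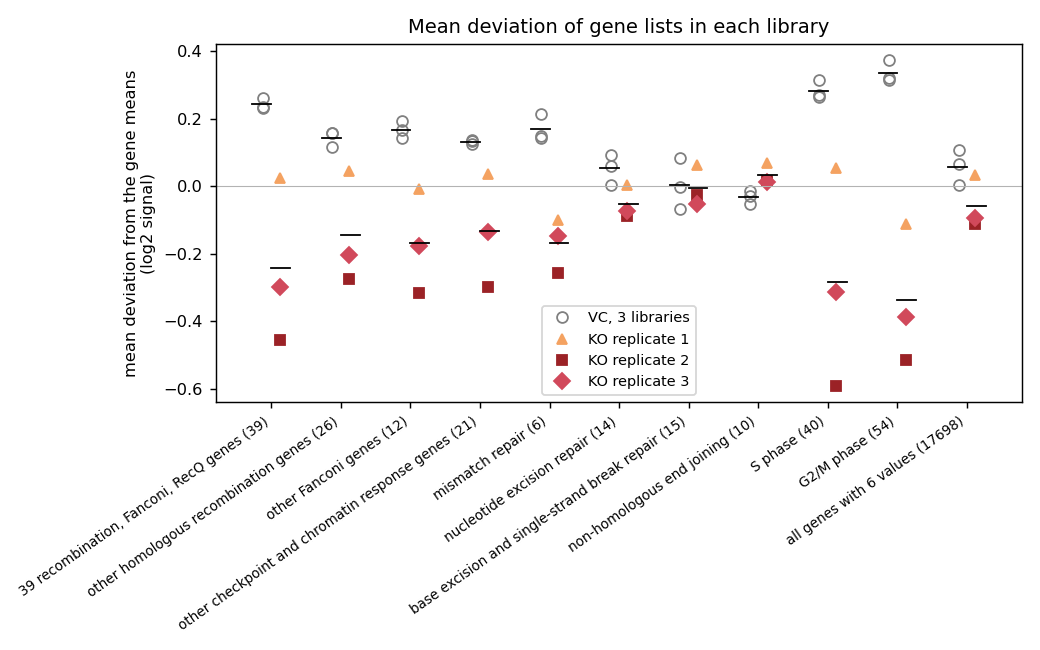
The vertical axis is the mean, over the genes of a list, of each library's log2 signal minus the gene's own mean over the 6 libraries, and the number of genes is in parentheses. Open circles are VC libraries, filled symbols are KO libraries and short lines are group means. In every list shown except base excision and non-homologous end joining, KO replicate 1 is the highest KO library and KO replicate 2 the lowest. All genes with 6 values show this order too. The non-homologous end joining list lies between -0.053 and 0.069 in every library.

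Other DNA repair genes, 104 in 7 lists, were called lower in 23 cases (22.1%, against 19.8% of all genes) and higher in 14 (13.5%, against 13.1%). Without KO replicate 1 the number called lower was 55, and with any other single library left out it lay between 2 and 14. Of 26 other recombination genes 9 fell and 3 rose, and of 12 other Fanconi genes 3 fell and 1 rose. Of 21 other checkpoint and chromatin response genes 2 fell and 2 rose. WEE1, the kinase that restrains CDK1, fell by 1.08 (limma adjusted p = 0.0107), and ABRAXAS1, the scaffold of the BRCA1-A complex, rose by 1.31 (limma adjusted p = 0.00895). BRCC3, the deubiquitinase held by ABRAXAS1 in that complex, fell by 0.73 (limma adjusted p = 0.0202). Among the called genes of the other recombination and Fanconi lists the largest changes were those of MCM9 (-0.87), a helicase that acts with MCM8, FAN1 (-0.78), a nuclease that binds ubiquitinated FANCD2, FAAP24 (-0.73), the partner of FANCM, and GEN1 (-0.73), a Holliday junction resolvase, with limma adjusted p between 0.0182 and 0.0458. MRE11 was not called (-0.33, limma adjusted p = 0.0825).

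The called genes of repair pathways outside recombination did not share 1 direction. Over all genes tested 19.8% were called lower and 13.1% higher, and the median log2 fold change was -0.13. Of 10 non-homologous end joining genes 1 fell and 2 rose, with a median log2 fold change of -0.0058, and the polymerase POLL rose by 0.93 (limma adjusted p = 0.0157). Base excision and single-strand break repair gave 3 genes that fell and 5 that rose of 15 (median -0.073), among them UNG, the uracil glycosylase, which fell by 0.75 (limma adjusted p = 0.0412). Nucleotide excision repair gave 2 lower and 1 higher of 14 (median -0.16), and mismatch repair 3 lower of 6 (median -0.30). PMS2, a mismatch repair endonuclease subunit, fell by 0.83 (limma adjusted p = 0.00915). It has near-identical pseudogenes, 7 of which had values in all 6 libraries, so reads could be split between them. Of the 10 called genes with the largest change, ABRAXAS1, WEE1 and PMS2 were called with each library left out, and the other 7 lost their call in at least 3 of the 6 fits.

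**Figure D5:**
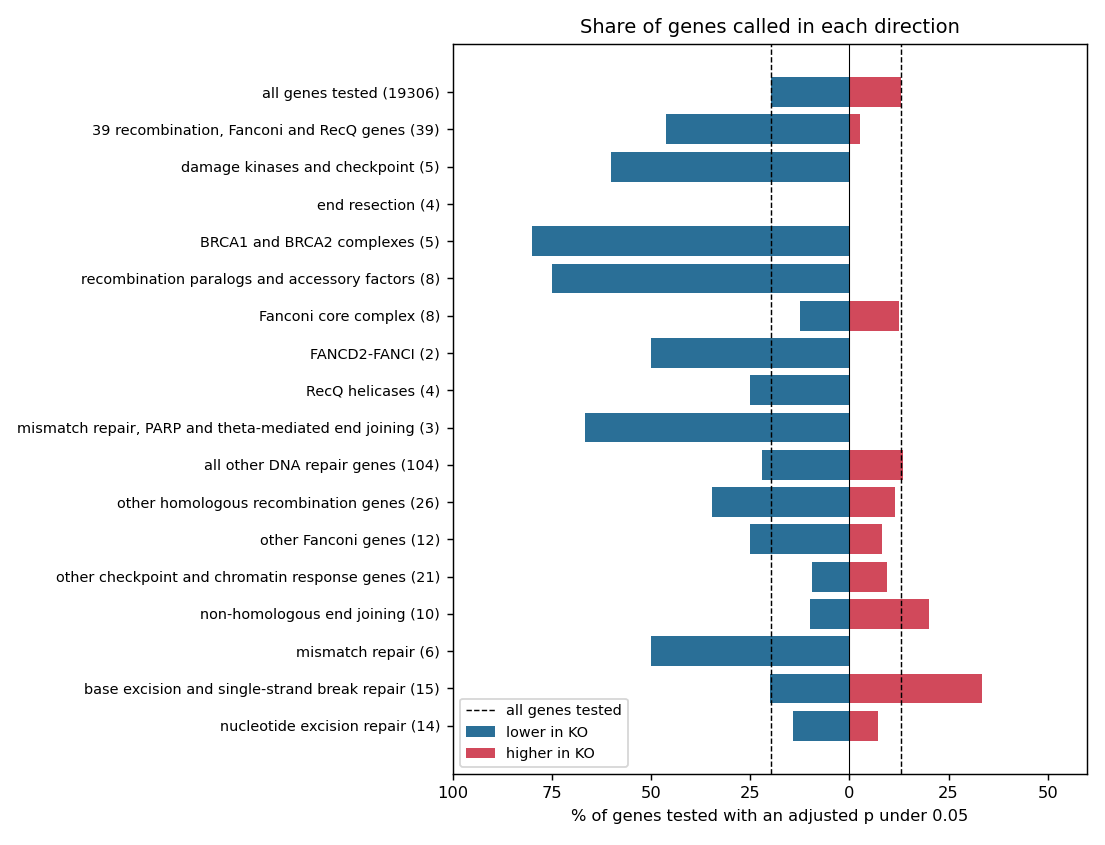
Bars show the percentage of the genes tested in each list that had an adjusted p under 0.05 (limma), lower in KO to the left and higher to the right, with the number tested in parentheses. Dashed lines mark the shares over all genes tested, 19.8% lower and 13.1% higher. The BRCA1 and BRCA2 complexes (80%) and the recombination paralogs and accessory factors (75%) have the longest bars to the left, and end resection has no bar.

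Some of the 39 genes lie on chromosomes whose genes differed as a whole. The 561 tested genes of chromosome 14 had a median log2 fold change of -0.39 and 46.0% were called lower, and RAD51B, XRCC3 and FANCM lie there. The 636 tested genes of chromosome 8 had a median of -0.32 and 34.3% were called lower, and NBN, RAD54B, WRN and RECQL4 lie there. CHEK2 lies on chromosome 22, where the median of 447 tested genes was 0.29 and 3.36% were called lower. FANCM, XRCC3, RAD51B, RAD54B and RECQL4 had log2 fold changes below the medians of their chromosomes, as given above, NBN lay above its chromosome's median, WRN (-0.32) lay at it, and CHEK2 lay below its own. The part of the chromosome in these differences was not tested.

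Neighbouring genes share sequence with several of the 39. In GENCODE release 29, exons of 20 of the genes overlap exons of another gene on the opposite strand, with over 10% of the exonic bases shared in 8 of them, and 6 overlap another gene on the same strand. The largest overlaps were those of XRCC3 with KLC1 (76.7%, opposite strand), RECQL with PYROXD1 (41.5%, opposite strand), RAD54L with LRRC41 (25.1%, opposite strand), FANCA with ZNF276 (23.6%, opposite strand), RAD50 with a read-through gene (79.7%, same strand) and RAD54B with FSBP (59.1%, same strand). The labels name a stranded kit, but the strand setting of the counting is not given in the sources used here, so the signals of these genes may include reads of their neighbours.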

How the data were processed

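RNA of 3 VC and 3 KO libraries of 143B cells was sequenced, and libraries were assigned to groups from their labels. The authors deposited log2 signals per gene symbol, whose distribution is the same in every library. The submitters' processing notes name CASAVA, STAR, Partek and genome build GRCh38.p13. Versions, annotation, linear unit and depth are not given in the sources used here, so no counting interval is given. Empty cells mark genes without a value.

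The 19306 genes (of 54308) that held 2 or more values per group were compared in R 4.3.3 with limma 3.58.1 (two-sided moderated test, no trend), with Benjamini-Hochberg adjustment. The 39 genes, the lists, the promoter words and the alternatives were chosen with earlier results of these data known. All 39 genes are named. Of the other repair genes, MRE11, UBE2T and the 10 called genes with the largest change are named, and other genes of the naming rule are not reported here. H2AX and HROB are listed under older symbols. On simulated data, 76% of 200 genes with a planted log2 change of 2 were recovered among 19306 genes. In separate simulated data with no planted change, 0 genes were called. Both simulations gave VC and KO the same spread within a gene, whereas the KO SD was the larger in 70.2% of genes with 6 values. The S and G2/M phase lists are those of Seurat 5.3.0. Exon overlaps came from GENCODE release 29 and chromosomes and promoters from RefSeq GRCh38.p14.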

Additional observations from a re-analysis of the deposited data

How the results depend on the processing

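Depth is unknown, and 3 libraries a group limit the precision. Of the 39 genes, 16 to 27 were called lower with the upper 50% of mean signal, with genes of 6 values, with median-centred libraries, with 1 added to the linear signal or with trend and robust moderation. The number was 6 without variance moderation (2442 over all genes), 2 with a 2-fold threshold (1048 over all genes) and 0 with a replicate block (939 over all genes, 2 of the other repair genes), in which libraries that share a replicate number are paired. Deviations from the group means of such libraries correlated at 0.0226, 0.00509 and -0.00736 over the 17698 genes with 6 values. Each correlation rests on 1 library per group, so it cannot decide whether libraries of the same number shared a batch or day. With single libraries left out it ranged from 0 to 30, and for all genes from 569 to 5729. The number called higher was 0 with the block (594 over all genes, 1 other repair gene), 0 with a 2-fold threshold (792 over all genes, 1 other repair gene) and 0 to 1 with single libraries left out (654 to 2940 over all genes). Other repair genes called lower numbered 46 with the upper 50% of mean signal, 37 with 1 added, 42 with trend and robust moderation and 1 with a 2-fold threshold, and with single libraries left out 2 to 55 were lower and 1 to 15 higher. Over the 13 alternatives that refit the genes, the 19 called genes kept their direction. CHEK2 turned to -0.064 without KO replicate 1 (0.15 without KO replicate 3) and PALB2 to 0.0086 with median-centred libraries. Adding 1 to the linear signal moved the median log2 fold change of all genes from -0.13 to -0.023. The causes were not tested.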
